A study of Mus musculus with 6 samples.

Results

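The 36 meiotic prophase genes described here were chosen by name, as the synaptonemal complex, meiotic cohesin, double-strand break, strand exchange, crossover, telomere attachment and meiotic entry genes of the mouse. All 36 symbols matched 1 identifier each among the 57170 identifiers in the table. They were measured by bulk sequencing of polyadenylated RNA from whole testes at postnatal day 5 (P5). The sKO group holds 4 libraries, sKO-1 to sKO-4, of mice with a conditional knockout of Mdm2 in germ cells ahead of meiosis. The WT group holds 2 libraries, WT-1 and WT-2, labelled wild type. Mdm2 encodes a ubiquitin ligase that restrains the tumour suppressor p53. The Cre driver, the strain and any pooling of animals are not stated in these sources. Because the libraries are not tied to separate animals in the labels, the spread between them may be technical.

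In meiotic prophase, chromosomes are organised on cohesin-based axes, cut by programmed double-strand breaks, repaired from the homologous chromosome and joined along their length by the synaptonemal complex. These genes are best known from spermatocytes. At P5 the seminiferous cords hold spermatogonia, the mitotic germ cells, and Sertoli cells, the somatic nurse cells, and meiosis has not begun. RNA of some meiotic genes is nevertheless known to be present in spermatogonia, and a few of the genes also act in mitotic cells.

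Library totals ran from 17990837 to 18394437 expected counts, and 17707 genes entered the comparison. Mdm2 was at 37.6, 47.3, 41.8 and 45.1 CPM (counts-per-million of the scaled library size) in the libraries sKO-1 to sKO-4, against 67.2 and 75.9 CPM in WT-1 and WT-2. These whole-testis counts can also hold Mdm2 RNA of cells outside the germ line. They may take in reads of exons left intact by the knockout. The germ cell genes, given below, were lower in the same sKO libraries. The part of each in the Mdm2 level was not tested. All sKO Mdm2 values lay below both WT values (log2 fold change −0.74, SE 0.11, adjusted p = 0.0241, edgeR quasi-likelihood test with Benjamini-Hochberg adjustment). This call was lost without sKO-2 (adjusted p = 0.0561), sKO-3 (0.0739), WT-1 (0.171) or WT-2 (0.111). Of 26 pan-germ-cell genes, 24 were tested, with 21 lower, 0 higher and the median log2 fold change at −2.21. Their summed level ran from 158 to 271 CPM in sKO, against 864 and 1210 CPM in WT, and none of the 26 was at 0 in all libraries. The summed Sertoli cell genes ran from 7930 to 8600 CPM in sKO, against 6920 and 7940 CPM in WT, with 1 of 23 higher and 0 lower. Sox9, a transcription factor of Sertoli cells, had a log2 fold change of 0.01. Of 20 spermatid genes, 18 were under 1 CPM in every library and 5 had no count at all, among them Prm2, the protamine of condensed sperm chromatin. Of the spermatocyte genes expressed after leptotene 3 of 9 tested were lower, of the undifferentiated spermatogonia genes 6 of 16, and of the differentiating spermatogonia genes 7 of 11, with 0 higher in each. Over all tested genes 2.30% were lower. These lists summed to 127 to 139, 190 to 247 and 845 to 1230 CPM in sKO. In WT they summed to 147 and 158, 380 and 474, and 1130 and 1180 CPM, so the sums of the differentiating list overlapped. The Leydig, endothelial, and macrophage and blood lists had 0 lower and 0 higher, and the peritubular list 1 of 11 lower. The macrophage and blood genes summed to 509 to 705 CPM in sKO, against 425 and 426 CPM in WT, and their part in the results was not tested. A principal component analysis split the libraries on its first axis into sKO-1, sKO-2 and WT-1 on one side and sKO-3, sKO-4 and WT-2 on the other (38.1% of the variance). These are called library subsets 1 and 2 below, and no batch is named in the labels.

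Most of the meiotic prophase genes were detected in the WT testes before meiosis. At least 1 CPM was reached in both WT libraries by 29 of the 36 genes, and in all 4 sKO libraries by 18. The 11 genes that met this level in both WT libraries but not in all 4 sKO libraries were Syce3, Tex12, Hormad1, Hormad2, Mei1, Mei4, Rec114, Hsf2bp, Hfm1, Rnf212 and Meioc. The 7 that did not reach it in both WT libraries were Spo11, Meiob, Spata22, Msh4 and the telomere attachment genes Majin, Terb1 and Terb2. Of these, Spo11 (1.51 CPM) and Terb1 (1.3 CPM) reached it in WT-1 alone. No gene was without counts in either group: the fewest were 6 summed over the sKO libraries, for Spata22, and 13 summed over the WT libraries, for Meiob and Majin. At such depths the exact size of a difference is not resolved.

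Levels can be ranked between genes only per length of exon. Syce2 had the highest level in WT, at 16.4 CPM per kb (15.7 and 17.2 per kb in the 2 libraries), above the ranges of all other members. It was followed by Sycp3 (11.9), Mnd1 (11.0), Trip13 (9.87), Stag3 (9.58), Psmc3ip (9.42), Tex11 (9.36), Sycp1 (9.14) and Smc1b (9.05), all in CPM per kb. Within this run the range of Sycp3, from 8.47 to 15.3 CPM per kb, covered both values of Mnd1, Trip13 and Psmc3ip, and Stag3, Tex11, Sycp1 and Smc1b overlapped one another. At the low end stood Msh4 (0.117), Meiob (0.201), Majin (0.212), Terb1 (0.248) and Spo11 (0.264). In sKO the order differed. Syce2 (10.9) and Mnd1 (10.7) led, then Psmc3ip (7.48) and Trip13 (7.46), while Sycp3 stood at 2.27 and Tex11 at 1.74 CPM per kb.

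**Figure D1:**
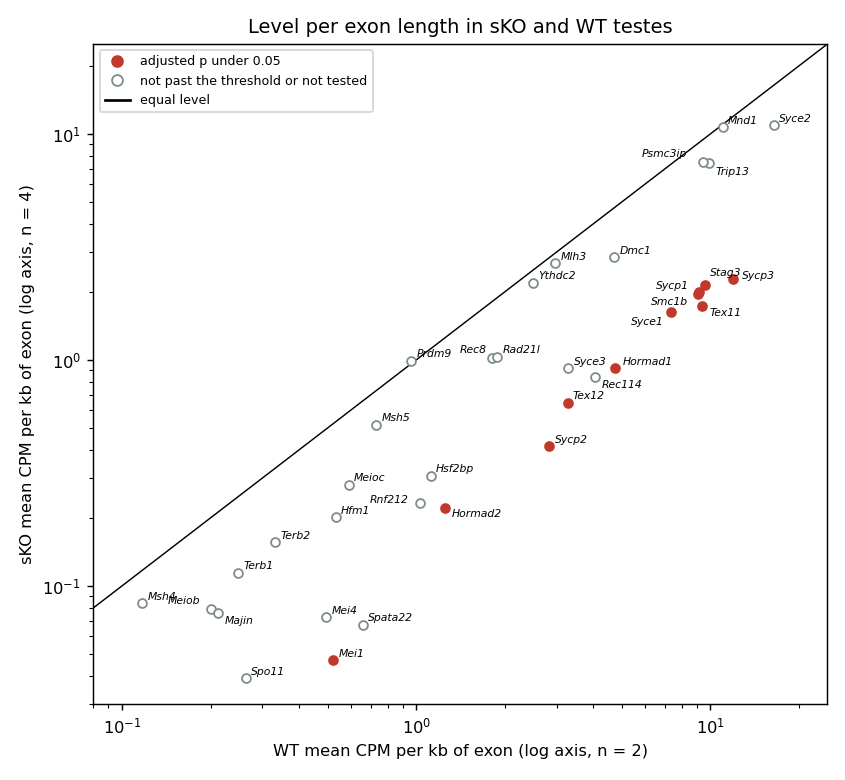
Mean CPM per kb of exon in sKO testes (vertical, log axis, n = 4 libraries) against WT testes (horizontal, log axis, n = 2 libraries) for the 36 genes. Filled red points passed the edgeR threshold, open points did not or were not tested, and the line marks equal levels. Mnd1 and Prdm9 lie near the line, while Sycp3, at 2.27 in sKO and 11.9 in WT, lies well below it.

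Of the 36 genes, 34 passed the count filter and were tested, and Meiob and Majin were not. Among the 34, 11 were lower in sKO and 0 higher at an adjusted p under 0.05, where 2.30% of all tested genes were lower and 0.124% higher. When WT-1 was left out, the WT arm was 1 library, 0 members and 1 gene in all (0.00543%) were lower, and the median log2 fold change of the 11 was −1.98, beside −2.37 with all libraries. Of the tested genes 6 cleared the filter through their WT libraries alone, and 1 of these, Mei1, is among the 11. The 4 sKO values lay below both WT values in 28 of all 36 genes and above both in 0, against 13.3% and 9.79% of all tested genes. The 28 include Majin, which was not tested, and the 6 members that cleared the filter through WT alone. For those 6 the filter fixed this order, so they lend the count no support. The 11 genes and their identifiers in the table are Sycp1 ENSMUSG00000027855, Sycp2 ENSMUSG00000060445, Sycp3 ENSMUSG00000020059, Syce1 ENSMUSG00000025480, Tex12 ENSMUSG00000032065, Stag3 ENSMUSG00000036928, Smc1b ENSMUSG00000022432, Hormad1 ENSMUSG00000028109, Hormad2 ENSMUSG00000020419, Mei1 ENSMUSG00000068117 and Tex11 ENSMUSG00000009670. The mean was lower in sKO for 35 genes and higher for 1, Prdm9. At an unadjusted p under 0.05 edgeR gave 25 members lower and 0 higher, where 13.1% of all genes passed in either direction, and DESeq2 gave 16 lower and 0 higher at an adjusted p under 0.05, where 3.16% of all genes with an adjusted p were lower and 0.392% higher. The 16 genes by DESeq2 were the 11 listed here with Syce2, Mei4, Rec114, Dmc1 and Hsf2bp. The median edgeR log2 fold change was −1.84 over the 34 tested members and 0.03 over all tested genes. In bulk RNA a loss of cells cannot be told apart from less RNA in each cell. The summed germ cell genes were lower in the same 4 libraries, and their part in these differences was not separated except through the ratios given further on.

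**Figure D2:**
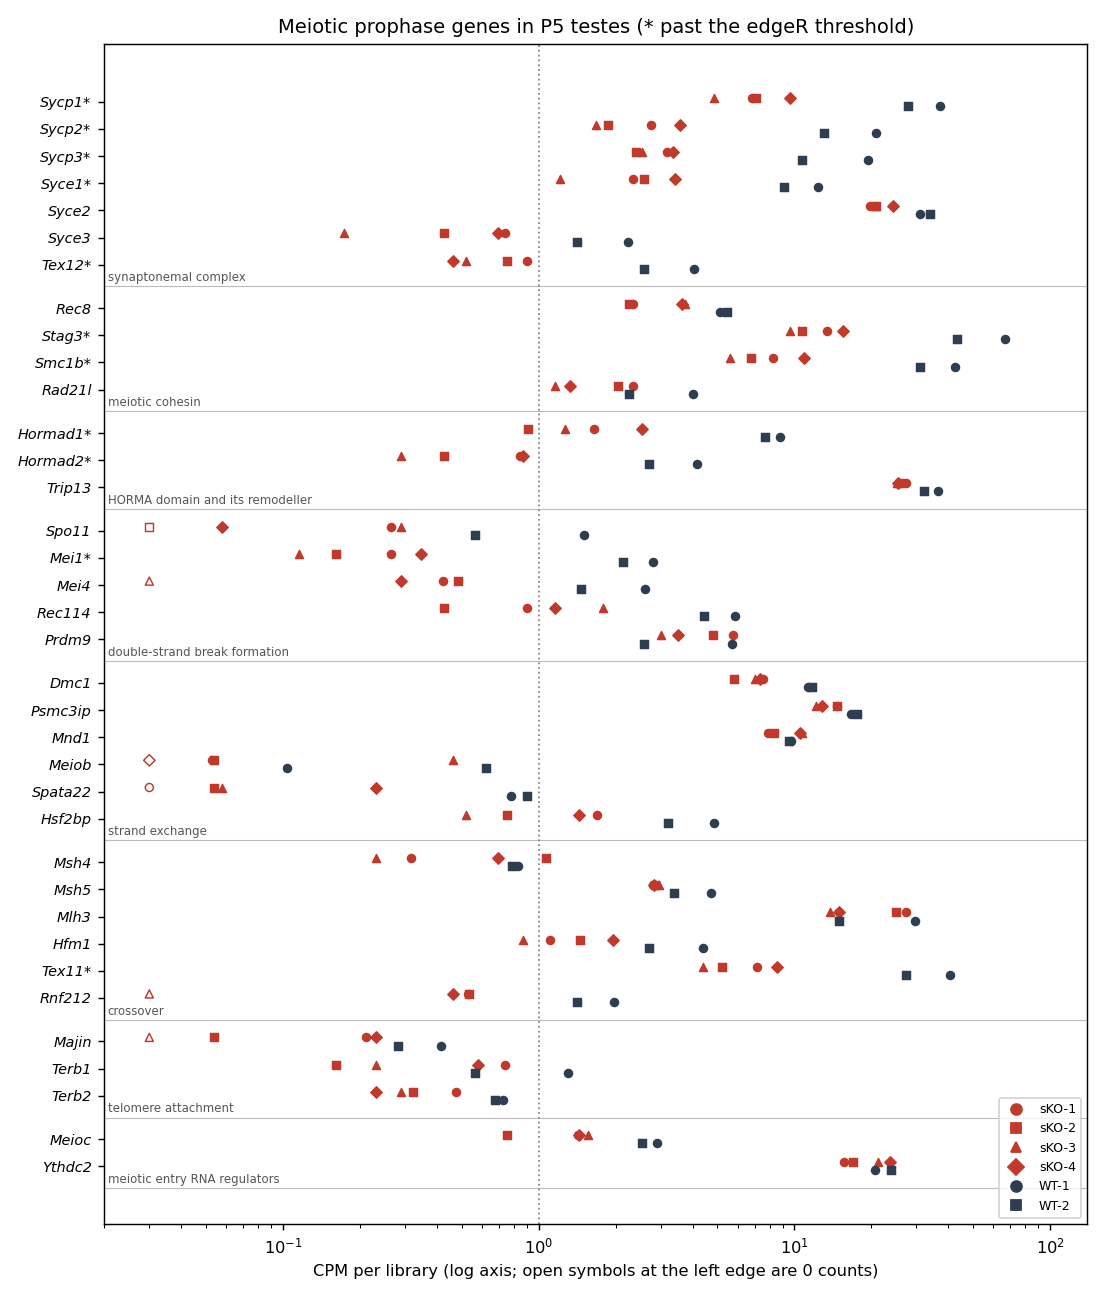
CPM of each of the 36 genes in every library (log axis), grouped by role, with sKO libraries in red above WT libraries in dark blue. Asterisks mark the 11 genes past the edgeR threshold, the dotted line marks 1 CPM, and open symbols at the left edge are libraries with no count. The red and blue points are well apart for Sycp1, Stag3 and Tex11 and interleave for Mnd1, Mlh3 and Ythdc2.

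Among the 7 genes of the synaptonemal complex, 5 were lower in sKO. Sycp1, the transverse filament that bridges the paired chromosomes, was at 6.83, 7.07, 4.85 and 9.59 CPM in sKO-1 to sKO-4, against 37.1 and 27.9 CPM in WT-1 and WT-2. All 4 sKO libraries lay far below both WT libraries, and the log2 fold change was −2.20 (SE 0.25, adjusted p = 0.0110). Sycp3, a protein of the lateral elements, was at 3.18, 2.41, 2.54 and 3.35 CPM in sKO, against 19.4 and 10.7 CPM in WT. The sKO libraries were close together and the WT libraries far apart, and the log2 fold change was −2.39 (SE 0.27, adjusted p = 0.0110). Its partner Sycp2 averaged 2.47 ± 0.876 CPM in sKO (SD, n = 4) and 16.9 ± 5.60 CPM in WT (SD, n = 2), a log2 fold change of −2.77 (adjusted p = 0.0120 by edgeR). Among the central element genes, Syce1 averaged 2.38 ± 0.905 CPM in sKO and 10.7 ± 2.32 CPM in WT (log2 fold change −2.17, edgeR adjusted p = 0.0280), and Tex12 0.658 ± 0.204 CPM in sKO and 3.32 ± 1.03 CPM in WT (−2.32, edgeR adjusted p = 0.0254). Syce3 did not pass (−1.82, SE 0.52, edgeR adjusted p = 0.158), with a fold change within its error of those of Syce1 and Tex12. Syce2, which assembles with Tex12, was at 19.8, 20.8, 20.9 and 24.4 CPM in sKO, against 30.9 and 33.8 CPM in WT. All 4 sKO libraries lay below WT, yet its log2 difference (−0.59, SE 0.13) missed the threshold (edgeR adjusted p = 0.0654).

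Of the 4 meiotic cohesin genes 2 were lower. Stag3, the meiotic STAG subunit, was at 13.4, 10.7, 9.65 and 15.5 CPM in sKO, against 66.5 and 43.3 CPM in WT, without overlap (log2 fold change −2.16, SE 0.23, edgeR adjusted p = 0.0110). Smc1b, the meiotic SMC1, was at 8.26, 6.75, 5.60 and 10.9 CPM in sKO, against 42.3 and 31.0 CPM in WT (−2.22, SE 0.26, edgeR adjusted p = 0.0110). The sKO mean was 22.4% of the WT mean for Stag3 and 21.5% for Smc1b. The kleisins, which close the cohesin ring, did not pass the test. Rec8 was at 2.33, 2.25, 3.75 and 3.64 CPM in sKO, against 5.14 and 5.46 CPM in WT, with no overlap (−0.83, edgeR adjusted p = 0.259). Rad21l averaged 1.71 ± 0.560 CPM in sKO and 3.13 ± 1.23 CPM in WT, and its groups overlapped (−0.86, edgeR adjusted p = 0.409). Of 15 genes of general cohesin and its loading and protection factors, 2 were lower and 0 higher (median −0.16 on the log2 scale). They were Esco2 (−0.76, edgeR adjusted p = 0.0351), an acetyltransferase of cohesin, and Cdca5 (−0.65, edgeR adjusted p = 0.0390), sororin, both of which serve dividing cells.

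The HORMA-domain proteins mark unsynapsed chromosome axes, and TRIP13 is the ATPase that removes them. Hormad1 was at 1.64, 0.910, 1.27 and 2.54 CPM in sKO, against 8.77 and 7.66 CPM in WT (log2 fold change −2.37, SE 0.37, edgeR adjusted p = 0.0238). Hormad2 averaged 0.608 ± 0.293 CPM in sKO and 3.43 ± 1.02 CPM in WT (−2.48, edgeR adjusted p = 0.0382). Both pairs of groups were separate. Trip13, which also works at the spindle checkpoint of mitotic cells, was at 27.3, 25.8, 25.1 and 25.5 CPM in sKO, against 36.5 and 32.1 CPM in WT. Its sKO values were below both WT values by a smaller margin (−0.40, SE 0.11, edgeR adjusted p = 0.138).

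Of the 5 genes of double-strand break formation 1 was lower. Mei1, which is needed for the breaks in mice, was at 0.265, 0.161, 0.116 and 0.347 CPM in sKO, against 2.80 and 2.14 CPM in WT. Its sKO mean was 8.97% of the WT mean (log2 fold change −3.44, SE 0.44, edgeR adjusted p = 0.0139), from 16 counts summed over sKO and 92 over WT. It cleared the count filter through its WT libraries alone, and so few sKO counts do not resolve the size of the fall. Spo11, the catalytic subunit, was at 0.265, 0, 0.289 and 0.0578 CPM in sKO, against 1.51 and 0.563 CPM in WT, and did not pass (−2.71, SE 0.85, edgeR adjusted p = 0.203). Its partners Mei4 (−2.72, edgeR adjusted p = 0.130) and Rec114 (−2.27, edgeR adjusted p = 0.0532) were below WT in all sKO libraries and also missed the threshold. Rec114 was at 0.900, 0.428, 1.79 and 1.16 CPM in sKO, against 5.87 and 4.45 CPM in WT, and Mei4 at 0 to 0.482 CPM in sKO, against 2.60 and 1.46 CPM in WT. Prdm9, the histone methyltransferase that places the breaks, had means of 4.28 CPM in sKO and 4.15 CPM in WT, too close to give a direction. It was at 5.77, 4.82, 3.0 and 3.52 CPM in sKO, against 5.71 and 2.59 CPM in WT, so the groups overlapped (0.04, SE 0.39, edgeR adjusted p = 0.983). The 3 libraries of subset 1 were all above the 3 of subset 2, and the log2 difference of sKO from WT was −0.11 within subset 1 and 0.32 within subset 2.

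No gene of the strand exchange group passed the edgeR test, although 3 of its 6 genes were well expressed in both groups. By DESeq2, Dmc1 (adjusted p = 0.0319) and Hsf2bp (adjusted p = 0.0154) were lower, so this depends on the method. Dmc1, the meiotic recombinase, was at 7.57, 5.78, 6.99 and 7.34 CPM in sKO, against 11.3 and 11.7 CPM in WT. The groups were separate, and the log2 fold change was −0.73 (SE 0.17, edgeR adjusted p = 0.0916). Psmc3ip (HOP2) and Mnd1 form the complex that activates DMC1. Psmc3ip averaged 13.6 ± 1.33 CPM in sKO and 17.1 ± 0.721 CPM in WT (−0.33, edgeR adjusted p = 0.392). Mnd1 was at 7.89, 8.35, 10.7 and 10.5 CPM in sKO, against 9.66 and 9.52 CPM in WT, with WT inside the sKO range (−0.03, SE 0.19, edgeR adjusted p = 0.971). Hsf2bp, which binds BRCA2, averaged 1.10 ± 0.557 CPM in sKO and 4.02 ± 1.14 CPM in WT (−1.86, edgeR adjusted p = 0.105). Spata22, a partner of MEIOB on single-stranded DNA, was under 1 CPM throughout, with 6 counts summed over sKO and 31 over WT (−3.22, edgeR adjusted p = 0.0964). Meiob itself was at 0.0529, 0.0536, 0.462 and 0 CPM in sKO, against 0.104 and 0.620 CPM in WT, with overlap and no test.

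Among the 6 crossover genes only Tex11 passed. Tex11, an X-linked gene required for crossovers and for male fertility, was at 7.15, 5.19, 4.39 and 8.55 CPM in sKO, against 40.6 and 27.3 CPM in WT. Its sKO mean was 18.6% of the WT mean (log2 fold change −2.42, SE 0.28, edgeR adjusted p = 0.0110). The helicase gene Hfm1 averaged 1.35 ± 0.475 CPM in sKO and 3.56 ± 1.21 CPM in WT (−1.40, edgeR adjusted p = 0.139), and Rnf212, a RING protein of crossover sites, 0.382 ± 0.257 CPM in sKO and 1.69 ± 0.399 CPM in WT (−2.12, edgeR adjusted p = 0.256). The MutS homologues pair as a clamp on recombination intermediates. Msh5 was at 2.81, 2.84, 2.95 and 2.83 CPM in sKO, against 4.72 and 3.38 CPM in WT (−0.51, edgeR adjusted p = 0.440), and Msh4 stayed near 1 CPM or below in every library (−0.48, edgeR adjusted p = 0.843). Mlh3, the endonuclease subunit that resolves crossovers, was at 27.4, 24.9, 13.8 and 15 CPM in sKO, against 29.7 and 15 CPM in WT. These values lay apart by library subset: the 3 libraries of subset 1 lay at 24.9 CPM or more and the 3 of subset 2 at 15 CPM or less. Within the subsets the log2 difference of sKO from WT was −0.18 and −0.07, beside −0.14 over all libraries (SE 0.36, edgeR adjusted p = 0.931).

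The telomere attachment genes, whose products tether chromosome ends to the nuclear envelope, did not reach 1 CPM in both WT libraries. Their 3 levels summed to 1.43, 0.536, 0.520 and 1.04 CPM in sKO, against 2.44 and 1.52 CPM in WT. Majin was under the filter, at 0 to 0.231 CPM in sKO, against 0.415 and 0.282 CPM in WT. Terb1 (−1.11, edgeR adjusted p = 0.560) and Terb2 (−1.07, edgeR adjusted p = 0.382) did not pass. MEIOC and YTHDC2 are RNA-binding partners that let germ cells leave the mitotic programme. Meioc was at 1.43, 0.750, 1.56 and 1.44 CPM in sKO, against 2.91 and 2.54 CPM in WT, without overlap (log2 fold change −1.07, edgeR adjusted p = 0.218). Ythdc2 was at 15.7, 17.0, 21.3 and 23.6 CPM in sKO, against 20.6 and 23.8 CPM in WT, and its groups overlapped (−0.19, edgeR adjusted p = 0.774).

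**Figure D3:**
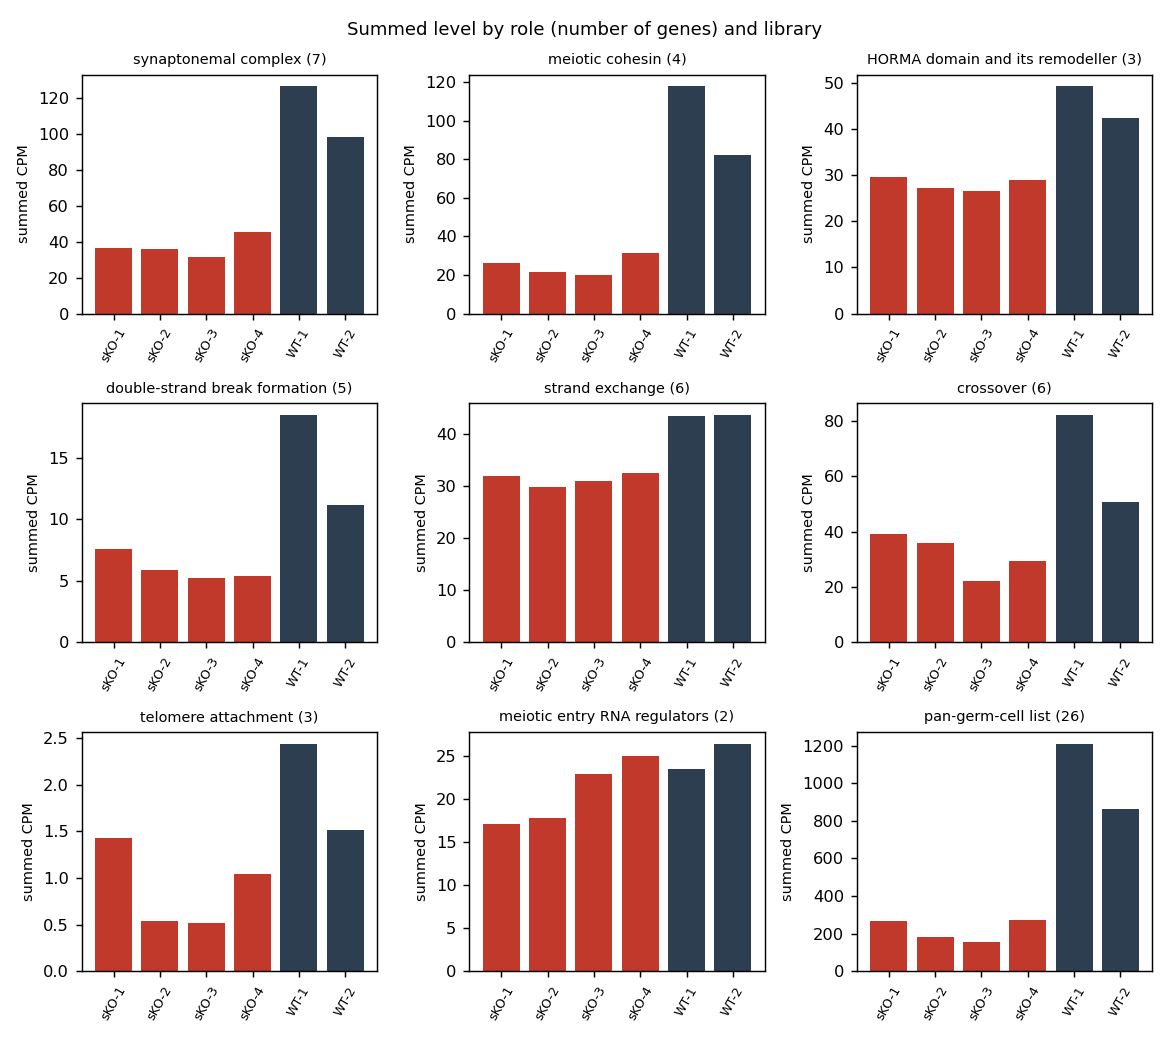
Summed CPM per library for each role, with the number of genes in brackets, and for the pan-germ-cell list (sKO red, WT dark blue, linear axes from 0). The synaptonemal complex genes summed to 31.8 to 45.5 CPM in sKO and to 98.5 and 127 CPM in WT, while the strand exchange genes summed to 29.7 to 32.4 CPM in sKO and to 43.3 and 43.6 CPM in WT.

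The fold changes were next set against the germ cell genes as a whole. Dazl, which encodes a germ cell RNA-binding protein, was at 45.5, 29.0, 29.2 and 43.9 CPM in sKO, against 218 and 155 CPM in WT (log2 fold change −2.34, edgeR adjusted p = 0.00929). Ddx4, the germ cell helicase, had a log2 fold change of −2.31 (edgeR adjusted p = 0.0136). The 11 members past the threshold ran from −3.44 to −2.16, which spans the germ cell median of −2.21. To test unequal change, library sizes were set to the summed counts of the 26 pan-germ-cell genes, so that a fold change became one of the ratio to that sum. In this fit 95.3% of all tested genes were higher, 0.102% lower and 4.58% past neither threshold, since the median over all genes moved to 2.31. Of the 34 tested members, 13 were higher and 0 lower relative to the germ cell sum, and 21 did not pass. All 11 members that were lower per library total were among those 21, with ratios from −1.26 (Mei1, SE 0.69, edgeR adjusted p = 0.0698) to 0.11 (Stag3, SE 0.41, edgeR adjusted p = 0.789). A ratio that misses the threshold does not show that a gene fell exactly as the germ cell sum did. Only the library sizes changed in this fit, so all fold changes moved by about the same amount. Sycp1 moved from −2.20 to 0.05 and Prdm9 from 0.04 to 2.36. The split of the members therefore largely restates the first comparison and is no separate support for it.

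The 13 members that were higher relative to the germ cell sum were Syce2, Rec8, Rad21l, Trip13, Prdm9, Dmc1, Psmc3ip, Mnd1, Msh4, Msh5, Mlh3, Meioc and Ythdc2. Their ratios ran from 1.19 (Meioc, edgeR adjusted p = 0.0417) to 2.36 (Prdm9). Without WT-1, 8 members were higher relative to that sum. Per library total, none of the 13 passed in either direction. Dividing by a sum that is itself lower in sKO raises the ratio of nearly all genes, so a higher ratio says only that a gene differed less than the germ cell sum did. Which cells of the testis supplied their RNA was not measured.

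**Figure D4:**
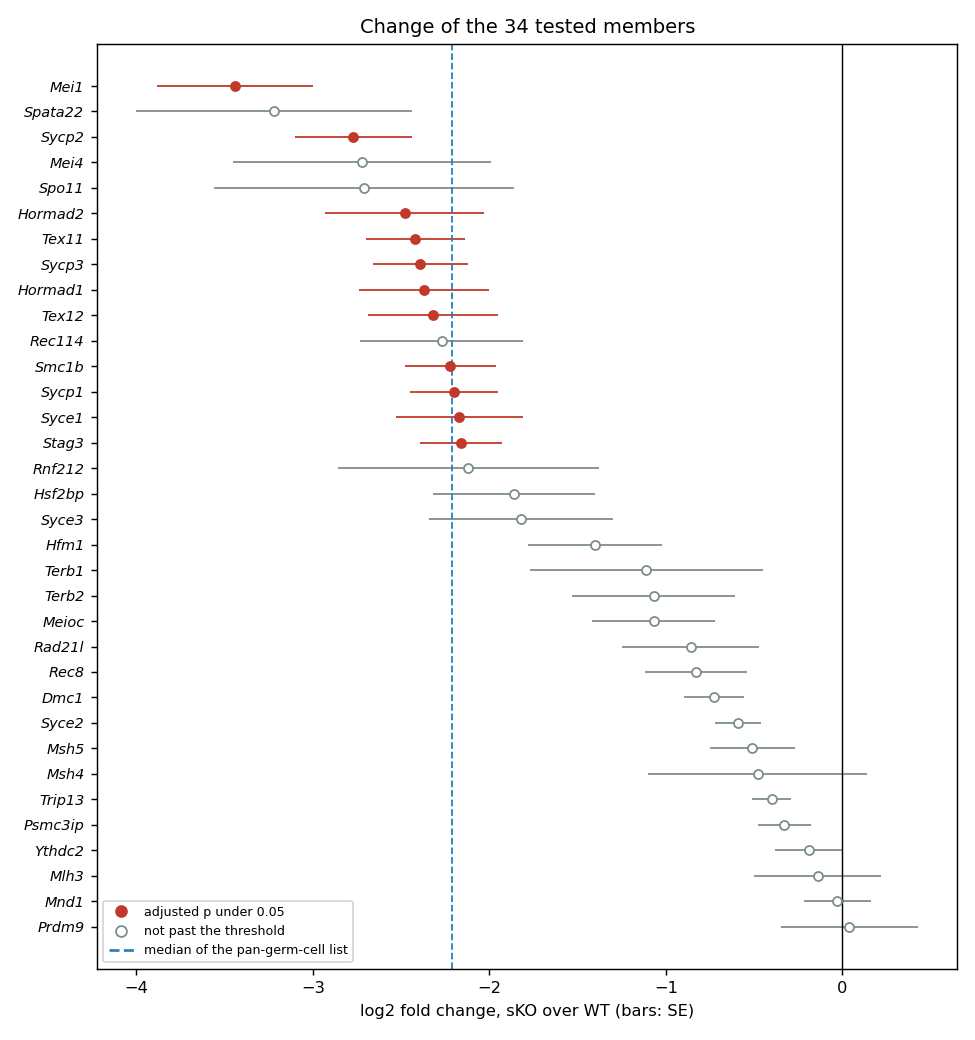
Log2 fold change of sKO over WT with its SE for the 34 tested members, in order of size, from edgeR with library totals scaled by TMM. Filled red points passed the threshold. The dashed line marks the median of the pan-germ-cell list, −2.21, and the members run from −3.44 (Mei1) to 0.04 (Prdm9).

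Of 97 further genes of the same processes in the table, drawn from 6 lists, 93 were tested. Of these 17 were lower and 0 higher (median log2 fold change −0.25), where 2.30% of all tested genes were lower and 0.124% higher. Among 24 tested genes of break formation and strand exchange 4 were lower. Stra8, the retinoic acid-induced switch for meiotic entry, was at 1.64, 1.18, 1.27 and 3.29 CPM in sKO, against 30.2 and 23.9 CPM in WT (−3.87, edgeR adjusted p = 0.00929). It was also lower relative to the germ cell sum (−1.67, edgeR adjusted p = 3.26e-04). The others were Tex15 (−1.96, edgeR adjusted p = 0.0110), a germ cell protein of the piRNA pathway and meiotic repair, Ankrd31 (−2.76, edgeR adjusted p = 0.0161), a partner of REC114, and Zcwpw1 (−1.10, edgeR adjusted p = 0.0214), a reader of PRDM9 marks. Among 14 tested crossover genes 3 were lower: Ccnb1ip1 (HEI10; −2.37), Rnf212b (−2.56) and AI481877 (SHOC1; −1.90), with edgeR adjusted p of 0.0211, 0.0298 and 0.0479. Among 9 axis and synaptonemal complex genes, Fkbp6 (−2.06) and Tex19.1 (−2.27) were lower, with edgeR adjusted p of 0.00929 and 0.0196, and both, like Tex15, are also in the pan-germ-cell list. Of 22 regulators of meiotic entry and transcription 7 were lower, led by Stra8, which stands in both lists, Sohlh1 (−3.07), Sohlh2 (−1.94) and Tcfl5 (−2.14), transcription factors of spermatogonia or spermatocytes. None of 11 tested telomere genes passed, where the most abundant were the motor subunit Dync1h1 (−0.23, edgeR adjusted p = 0.475) and the single-strand binding protein Rpa1 (−0.29, edgeR adjusted p = 0.236). Without WT-1, which leaves 1 WT library, the calls were lost here as across the whole table. Without sKO-1 or sKO-3 11 of the 93 were lower, where 176 and 150 of all genes were. Without sKO-2 7 were lower, where 103 of all genes were.

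The 250 bases before the annotated starts of the members were read from RefSeq (GRCm38.p6, which is not the mm39 build named for the counts). Promoters were listed for 30 of the 36 genes, 35 windows in all. In all, 3 motifs were searched on both strands: CACGTG (an E-box), GCGGGAA (E2F type) and TGACGTCA (cAMP response element). They share no letters where they were found. The E-box stood in 8 of 35 windows (22.9%), against 6.02% of all 32851 promoter windows, and the E2F type motif in 11 (31.4%), against 3.82%. Among the 11 windows of genes past the threshold the E-box stood in 6 and the E2F type motif in 5, against 2 and 6 of the 24 other windows. By gene, which counts the overlapping Hormad1 windows once, these were 5 and 4 of 10 genes past the threshold, against 2 and 6 of 20 others. The cAMP response element stood in 0 of the 35 windows and in 1.55% of all. Member windows held a median of 13 CpG dinucleotides and all windows 6, and both motifs found contain a CpG. The median was 17 in windows of genes past the threshold and 13 in the other member windows. Of the genes past the threshold, Sycp2, Syce1, Hormad2 and Mei1 hold neither motif. Of those not past it, Syce2 holds both, Rec114 an E-box, and Rnf212, Meioc, Prdm9, Hsf2bp and Msh5 an E2F type motif. Windows of each kind are shown: 6 genes past the threshold with a motif, then Sycp2, past it without one, Msh5, not past it with one, and Dmc1 and Mnd1, not past it without one. Sycp1 is at chr3:102936101-102936350, minus strand. Sycp3 is at chr10:88459337-88459586, plus strand, and Tex12 at chr9:50561269-50561518, minus strand. Stag3 is at chr5:138280259-138280508, plus strand, Smc1b at chr15:85131958-85132207, minus strand, and the first of 2 Hormad1 windows at chr3:95559427-95559676, plus strand. Sycp2 is at chr2:178407659-178407908, minus strand, and Msh5 at chr17:35046623-35046872, minus strand. Dmc1 is at chr15:79605110-79605359, minus strand, and Mnd1 at chr3:84155787-84156036, minus strand. Each reads 5′ to 3′ on the gene's strand and ends at the base before the start, with motif matches in capitals (TTCCCGC is the E2F type motif on the opposite strand).
Sycp1: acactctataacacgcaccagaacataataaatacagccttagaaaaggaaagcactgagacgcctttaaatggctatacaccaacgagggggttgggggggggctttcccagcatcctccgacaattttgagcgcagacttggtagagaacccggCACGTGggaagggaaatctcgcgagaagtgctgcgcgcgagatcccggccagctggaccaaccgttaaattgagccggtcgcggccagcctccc
Sycp3: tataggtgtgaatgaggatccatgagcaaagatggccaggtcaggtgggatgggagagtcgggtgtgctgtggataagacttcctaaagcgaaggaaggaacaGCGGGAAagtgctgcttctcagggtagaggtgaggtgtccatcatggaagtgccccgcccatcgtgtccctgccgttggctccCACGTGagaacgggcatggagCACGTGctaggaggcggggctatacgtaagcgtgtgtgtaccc
Tex12: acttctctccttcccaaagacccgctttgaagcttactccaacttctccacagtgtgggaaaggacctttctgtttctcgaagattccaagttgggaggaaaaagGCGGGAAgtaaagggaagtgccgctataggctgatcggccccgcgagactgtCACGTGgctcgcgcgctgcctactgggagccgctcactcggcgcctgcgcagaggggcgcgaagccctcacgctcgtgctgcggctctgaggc
Stag3: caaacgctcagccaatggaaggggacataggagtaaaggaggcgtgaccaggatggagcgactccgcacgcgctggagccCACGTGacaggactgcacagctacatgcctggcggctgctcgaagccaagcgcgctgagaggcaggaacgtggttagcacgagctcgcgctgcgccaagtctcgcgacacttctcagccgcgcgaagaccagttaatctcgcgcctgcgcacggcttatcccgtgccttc
Smc1b: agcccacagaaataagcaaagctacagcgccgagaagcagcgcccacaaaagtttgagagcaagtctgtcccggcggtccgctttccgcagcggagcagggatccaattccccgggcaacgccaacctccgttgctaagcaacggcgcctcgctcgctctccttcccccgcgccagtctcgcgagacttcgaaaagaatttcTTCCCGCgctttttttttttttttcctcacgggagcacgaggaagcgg
Hormad1: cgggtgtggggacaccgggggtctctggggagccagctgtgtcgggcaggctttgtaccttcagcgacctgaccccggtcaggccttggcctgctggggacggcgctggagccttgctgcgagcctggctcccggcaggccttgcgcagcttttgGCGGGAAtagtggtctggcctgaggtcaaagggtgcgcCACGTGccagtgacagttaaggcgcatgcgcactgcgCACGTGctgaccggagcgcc
Sycp2: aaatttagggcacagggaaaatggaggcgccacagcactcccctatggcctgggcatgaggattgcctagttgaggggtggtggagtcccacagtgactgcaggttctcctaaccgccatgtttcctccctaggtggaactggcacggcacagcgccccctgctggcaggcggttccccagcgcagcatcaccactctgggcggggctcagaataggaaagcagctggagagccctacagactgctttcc
Msh5: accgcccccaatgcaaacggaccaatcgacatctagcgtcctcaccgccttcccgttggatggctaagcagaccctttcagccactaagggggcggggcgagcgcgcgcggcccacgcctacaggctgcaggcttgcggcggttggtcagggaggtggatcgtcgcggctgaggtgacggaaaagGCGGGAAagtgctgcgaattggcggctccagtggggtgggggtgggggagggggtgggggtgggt
Dmc1: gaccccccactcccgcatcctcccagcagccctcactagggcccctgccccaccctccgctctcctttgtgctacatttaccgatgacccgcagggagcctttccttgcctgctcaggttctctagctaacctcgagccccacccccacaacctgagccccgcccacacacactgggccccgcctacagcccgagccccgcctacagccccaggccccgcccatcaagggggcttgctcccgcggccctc
Mnd1: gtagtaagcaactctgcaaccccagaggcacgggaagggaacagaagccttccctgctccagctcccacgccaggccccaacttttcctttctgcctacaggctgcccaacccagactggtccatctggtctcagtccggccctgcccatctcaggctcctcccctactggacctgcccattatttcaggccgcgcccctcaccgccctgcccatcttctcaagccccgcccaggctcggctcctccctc
Sycp3 and Hormad1 each hold 1 E2F type motif and a pair of E-boxes, Tex12 holds 1 of each, Sycp1 and Stag3 an E-box, and Smc1b and Msh5 an E2F type motif. A match of letters is a description and shows no binding.

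Some counts may hold reads of neighbours or copies, and the use of strand in counting is not stated in these sources. On the GRCm38 annotation, exons of Sycp3 overlap those of Chpt1 on the opposite strand over 660 bases (52.2% of its exon length). Chpt1, a phospholipid enzyme, was at 65.4 to 92.3 CPM in sKO, against 65.7 and 82.1 CPM in WT (log2 fold change 0.12, edgeR adjusted p = 0.840). Rec114 overlaps Nptn (26.9%) and Psmc3ip overlaps Mlx (21.2%), both on the opposite strand, and the expected counts of Sycp3 and Psmc3ip were not whole in any library. Those of Rec114 were not whole in 5 of the 6 libraries, and its level is uncertain to that extent. Spata22 shares 1025 bases (80.5% of its exon length) with Gm49340 on the same strand, which had 2 counts in sKO-1 and 0 elsewhere. The counts of Spata22 were whole in every library, so these values do not show that reads were shared. Its level stays uncertain because its counts are few. Hormad1 matches Gm15529 at 97.7% identity over 61.0% of its transcript, and Gm15529 had no count. Mnd1 shares 94.2% of its transcript at 97.1% identity with the pseudogene Mnd1-ps, which had no count. Prdm9 and Msh4 also had counts that were not whole in all 6 libraries, and their levels are uncertain to that extent. Short stretches of Prdm9 (up to 151 bases), Mei4 (up to 134) and Stag3 (up to 109) match other genes at 95% identity or more.

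Leaving out a WT library leaves that arm with 1 library, which is then assumed to vary as the sKO libraries do. WT-1 exceeded WT-2 in all 11 members past the threshold, as it did for the summed germ cell genes. Without WT-1 the calls were lost across the whole table, and the edgeR adjusted p of the 11 genes ran from 0.117 to 0.354. Without WT-2, 7 members were lower, where 1.04% of all tested genes were. Leaving out sKO-1 gave 8 members lower, where 176 of all genes were, and leaving out sKO-3 also gave 8, where 150 were. The fit lacking sKO-2 had 7 members lower, where 103 of all genes were. That lacking sKO-4 had 9, where 225 were. With all libraries 408 genes were lower, so calls were lost over the whole table in these fits as well. The 7 genes Sycp1, Sycp2, Sycp3, Stag3, Smc1b, Tex11 and Mei1 passed whichever sKO library was left out. Of these, Mei1 cleared the count filter through its WT libraries alone, with 16 counts summed over sKO, so its call adds no support. In a model that also fitted the library subset, a choice known from earlier results of these libraries whose p-values may be too small, 23 members were lower and 0 higher, among them all 11, where 8.65% of all genes were lower and 4.97% higher. The log2 differences of the 11 genes ran from −3.19 to −2.16 within subset 1 and from −2.81 to −1.81 within subset 2.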

How the data were processed

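Polyadenylated RNA of 6 whole-testis libraries (4 sKO, 2 WT) was sequenced. The authors deposited 1 table of expected counts per gene. The submitters' processing notes name fastp, STAR, RSEM and mm39. Their versions and the strand setting are not stated there. Expected counts were rounded to whole numbers. Of 57170 identifiers 51742 (90.5%) matched a symbol, and 444 are not of Ensembl form.

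Genes were kept by filterByExpr (minimum count 10, here 0.549 CPM in 2 libraries), scaled by TMM and tested two-sided with edgeR 4.0.16 (quasi-likelihood, Benjamini-Hochberg over 17707 genes, threshold 0.05), in R 4.3.3 with limma 3.58.1. The SE of an edgeR fold change was taken as its absolute value divided by the square root of the F statistic of its test. The procedure was tested on simulated data. There the share of unaltered genes with an unadjusted p under 0.05 was near that level, but a larger share of the calls was false than the threshold allows. A first requirement on the share of false calls was not met and was replaced by one on the p-values and the recovered fold changes. All calls, and not only those near the threshold, are to be read with that limit. DESeq2 1.42.0, other scalings and filters, a replicate block, a library subset term and leaving out each library were alternatives. Totals were 17990837 to 18394437 counts, which limit precision for genes of few counts. The series' design text gives 3 replicates per group, and the labels of the samples were followed.

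The 36 genes and all lists were chosen with earlier results of these data known. All 36 are named, with Mdm2, Dazl, Ddx4 and Sox9, and per pathway list up to 4 genes of smallest adjusted p or, with none past the threshold, the 2 most abundant. Chpt1, Prm2 and the overlapping genes and pseudogene were named for their position or role. Exon lengths and overlaps come from a GRCm38 annotation, and transcripts were compared with BLAST 2.17.0 (identity of at least 95% over 100 bases).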

Additional observations from a re-analysis of the deposited data

Results flagged for a closer look

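Within the 4 sKO libraries, 3 members had 1 library far from the other 3 by Dixon's test. Meiob was at 0.462 CPM in sKO-3, above the others. Rnf212 was at 0 CPM in sKO-3 and Meioc at 0.750 CPM in sKO-2, both below the others. Chance gives about 1 in 20 groups such a library, and 36 genes were examined. All 3 genes have few counts in sKO, 10, 28 and 93 summed over the group, and the cause was not tested.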

How the results depend on the processing

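Of 471 fold changes of members under the alternatives, 406 kept their direction and side of the threshold, 30 lost and 25 gained a call, and 10 changed sign, none of them among the 11 genes past the threshold. The sign changes were those of Prdm9 (−0.13 with library sizes set to the Sertoli cell genes, −0.45 to 0.72 without 1 library), Mnd1 (−0.11 to 0.04 without 1 library) and Mlh3 (−0.58 to 0.43 without 1 library). Members lower numbered 23 with the library subset as a term and 0 to 9 without 1 library. Members higher relative to the germ cell genes numbered 8 to 13 without 1 library. Over all genes, 661 were lower and 11 higher with Sertoli cell sizes, 646 and 80 by DESeq2, 1531 and 880 with the subset term, and 1 to 225 and 2 to 7 without 1 library. Without a count filter 541 were lower. Pathway genes lower numbered 38 with the subset term and 0 to 13 without 1 library, and 1 was higher by DESeq2 and 2 with the subset term. The cause was not tested.

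The numbers 1 and 2 occur in both groups. Deviations from the group means correlated at 0.42 for the pair numbered 1 and −0.44 for the pair numbered 2. With 2 WT libraries the deviations of WT-1 and WT-2 mirror each other. These values therefore cannot show whether the numbers mark pairs, and the labels state no pairing. With a replicate block on these 4 libraries, 268 genes and 11 members were lower and Mlh3 was at 0.28. These hold 10 of the 11 genes: Tex12 lost its call (adjusted p = 0.0777 by edgeR) and Rec114 gained one (0.0159). The same 4 libraries without the block gave 187 genes lower and 9 higher, 10 members and 11 pathway genes lower, 1 member lower relative to the germ cell genes, and Mlh3 at 0.21. There Tex12 (adjusted p = 0.0896 by edgeR) and Hormad2 (0.0798) lost their calls and Rec114 gained one (0.0408). Fewer than 50 summed counts limit precision for Mei1, Tex12 and Hormad2 in sKO.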
